A study of Mus musculus with 28 samples.

Results

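The glutamine, lysine and arginine tRNAs of plasma extracellular vesicles (EVs) were examined as the 84 rows of the small RNA count table whose identifiers name a tRNA-Gln, tRNA-Lys or tRNA-Arg, out of 464 tRNA rows and 18710 rows in all. Identifiers follow the scheme amino acid, anticodon, isodecoder, gene copy, where isodecoders share an anticodon and differ elsewhere in the sequence. The set held 19 Gln rows (12 with anticodon CTG and 7 with TTG), 40 Lys rows (26 CTT and 14 TTT) and 25 Arg rows (6 of Arg-ACG, 3 of Arg-CCG, 5 of Arg-CCT, 5 of Arg-TCG and 6 of Arg-TCT), which form 58 isodecoders. The rule for their selection used the names only, but it was set with earlier results of these data known.

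Plasma EVs were collected from 28 mice at 2 months of age, with 1 library per mouse. WT control (n = 6) and WT NMES (n = 6) mice carried 2 intact copies of Kl, the gene of the hormone and co-receptor KLOTHO, and KlHET control (n = 8) and KlHET NMES (n = 8) mice were heterozygous for a disrupted Kl allele on a mixed B6 and 129S5 background. NMES mice received neuromuscular electrical stimulation of the lower leg muscles at 9 mA in 5 sessions, with 2 sets of 10 stimulations per leg, and control mice received 15 min of anesthesia on the same days. All 4 groups were therefore exposed to 2.5% isoflurane, and plasma was taken 24 h after the last session. The sex of the mice is not given in the sources used here, and the mutation is a germline one, so that the disrupted allele was not limited to a tissue.

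Transfer RNAs carry amino acids to the ribosome and read the codons of the mRNA through the 3 bases of the anticodon. In blood, tRNAs and their fragments are found in EVs and in protein complexes. Gln-CTG and Gln-TTG read the glutamine codons CAG and CAA, and Lys-CTT and Lys-TTT read the lysine codons AAG and AAA. Arg-TCT reads the arginine codon AGA, Arg-CCT reads AGG, Arg-TCG reads CGA and Arg-CCG reads CGG. Arg-ACG reads CGT, and the first base of its anticodon is converted to inosine, which widens its reading to further arginine codons. Lys-TTT is known outside the cell's own translation as the primer that HIV-1 uses for reverse transcription. Modified bases in tRNAs can stop the reverse transcriptase during library preparation, so read counts need not follow the number of molecules equally in all tRNAs.

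RefSeq lists 66 genes with these 9 anticodons in the mouse assembly GRCm38.p6, which is mm10, the build named for the deposited counts. They lie on 14 chromosomes, with 20 of them on chromosome 13, and GENCODE vM21 places 53 between genes, 9 in introns and 4 in exons of other genes. Genes of 8 of the anticodons are 72 or 73 bases long and those of Arg-TCT 74 to 87 bases, so counts were compared between tRNAs without a length correction, and Arg-TCT is the exception in length. The 66 genes are fewer than the 84 rows, and for Lys-TTT RefSeq lists 2 genes against 14 rows. RefSeq symbols were not paired with the identifiers of the table, so no row was given a position.

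Libraries held 531261 to 3389206 counts (median 887415), of which tRNAs took 7.99% to 63.3% (median 18.3%). The median tRNA share was 20.3% in WT control, 20.2% in WT NMES, 20.1% in KlHET control and 13.8% in KlHET NMES libraries. The counting assigned many reads to more than 1 row. Among 12 isodecoders with several gene copies (38 rows), 6 had identical counts for all copies in every library and 11 had totals within 1% of each other, and the 84 rows held 69 distinct count profiles. Sums over rows therefore count some reads repeatedly, and levels are given relative to all counts of the library, scaled to a total of 1000000 (CPM), to compare libraries. Fewer vesicles, or cells releasing them, and less tRNA per vesicle cannot be told apart in these data. The paper reports that EV size and concentration did not differ significantly by genotype or by treatment. The spread and the tests are between mice, since each library came from 1 mouse.

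In all, 3 libraries stood apart and are named with the results they touch. KlHET control library 2 had the highest Gln and the lowest Lys level of all 28 libraries. WT control library 5 had the largest total and the largest tRNA share, 63.3%. KlHET NMES library 1 had the lowest Gln level. The marker miRNAs of other RNA sources were at their lowest share of miRNA counts in KlHET control library 2. There the 6 erythroid miRNAs (miR-451a and others) held 0.130% of miRNA counts against a group median of 5.47%, the 5 of leukocytes and platelets 0.0121% against 0.465%, the liver miRNA miR-122 0.123% against 2.68%, and the 4 of skeletal muscle 0.0106% against 0.388%. KlHET NMES library 1 had the highest erythroid share of all libraries, 16.7%. No marker was at 0 in all libraries, and the part of these sources in the tRNA levels was not tested.

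Lys tRNAs made up most of the counts. Over all libraries Lys-TTT held 276400 counts, 55.2% of the 500611 counts of the 84 rows, and Lys-CTT held 149814 (29.9%). Gln-CTG followed with 31566 counts (6.31%), Gln-TTG with 24822 (4.96%), Arg-TCG with 9117 (1.82%) and Arg-TCT with 4656 (0.930%). Arg-CCG (1579 counts), Arg-CCT (1422) and Arg-ACG (1235) were the rarest. With each isodecoder counted once, Gln-TTG (19883 counts, 10.7%) came before Gln-CTG (15110, 8.16%) in these pooled totals, while Lys-TTT held 47.9% and Lys-CTT 25.2%. By library, Gln-CTG was still higher than Gln-TTG in 19 of 28 when counted so. KlHET control library 2 alone held 61.7% of the Gln-CTG and 75.2% of the Gln-TTG counts summed over rows. As shares of all tRNA counts pooled over libraries, Lys took 5.30%, behind Gly, Glu and Ile, while Gln took 0.701% and Arg 0.224%. Single libraries weigh heavily in these pooled shares. WT control library 5 had 2146595 tRNA counts against a median of 147312.5, and KlHET control library 2 held 67.6% of all Gln counts. Medians by group are given below.

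This order was steady at its top and loose at its bottom. Lys-TTT exceeded Lys-CTT in 27 of 28 libraries, with WT control library 5 as the exception, and Lys-CTT exceeded Gln-CTG in 27 of 28, with KlHET control library 2 as the exception. The median ratio of Lys-TTT to Lys-CTT was 2.30, and that of Lys-CTT to Gln-CTG 11.0. Gln-CTG exceeded Gln-TTG in all 28 libraries, but in only 19 when each isodecoder was counted once. Gln-TTG exceeded Arg-TCG in 10 of 28 libraries although its total was larger, and KlHET control library 2 alone held 75.2% of all Gln-TTG counts. Arg-TCG exceeded Arg-TCT in 27 libraries, and in 17 with each isodecoder counted once. Arg-CCG exceeded Arg-CCT in 23, and Arg-CCT exceeded Arg-ACG in 14 of 28, or in 21 with each isodecoder counted once (median ratio 1.38).

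Some anticodons were held mostly by 1 or a few isodecoders, while in others several isodecoders had nearly equal counts. The highest rows were tRNA-Lys-TTT-2-1 and its copy 2-2 with 43060 counts each, followed by the copies of Lys-TTT-1 with 28904 to 28927. Among Lys-CTT rows the 7 copies of Lys-CTT-3 held 15217 to 16349 counts, a spread of 6.92%, which made Lys-CTT-3 the only one of the 12 multi-copy isodecoders whose totals differed by more than 1%. In Gln-CTG, isodecoders 1, 2, 3 and 6 were close to each other, and the highest row held 10.6% of the anticodon. The highest row of Gln-TTG held 20.2%. In Arg-TCT, tRNA-Arg-TCT-3-1 held 2610 counts, 56.1% of the anticodon, and in Arg-CCT, tRNA-Arg-CCT-4-1 held 840 (59.1%) while each of the other 4 CCT rows held 137 to 149. A count was found in every library for 54 of the 84 rows, and 15 rows held fewer than 100 counts in all libraries together. The count filter kept 57 rows for testing (17 Gln, 26 Lys and 14 Arg) and left out 27, among them 5 of the 6 Arg-ACG rows and 4 of the 5 Arg-CCT rows.

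**Figure D1:**
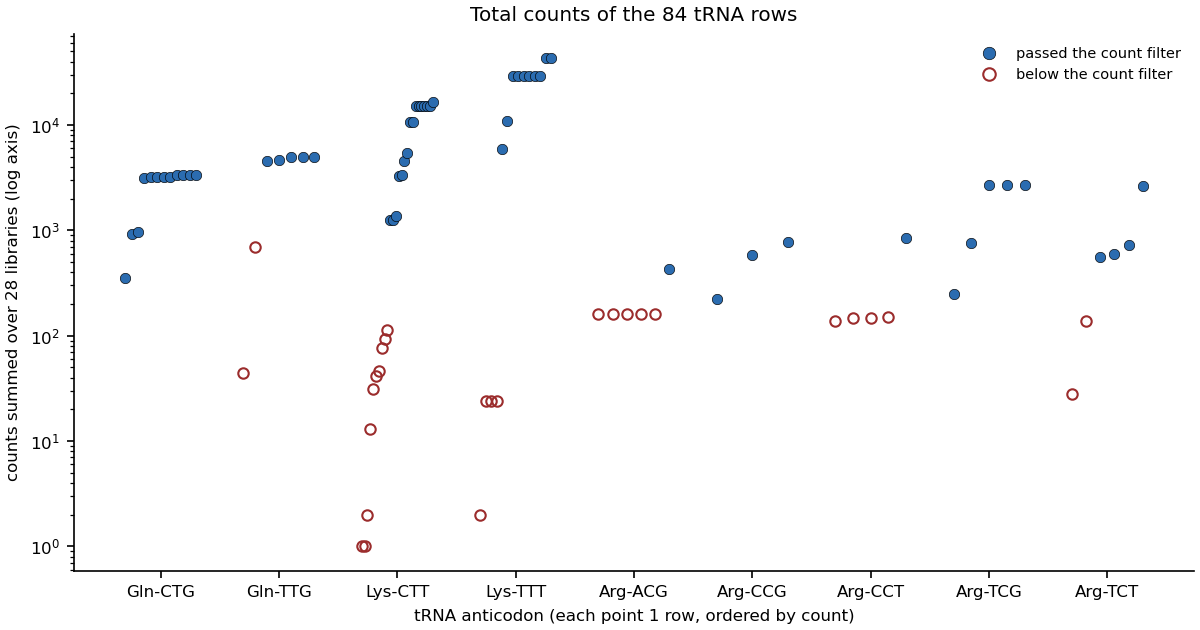
Counts summed over 28 libraries (log axis) for each of the 84 tRNA rows, in columns by anticodon, with rows that passed the count filter filled and the 27 others open. Lys-TTT-2 (43060 counts per copy) lies at the top, and the open points of Lys-CTT and Lys-TTT are rows with few counts.

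Levels of Lys-TTT overlapped between all groups. They ran from 4103 CPM in the lowest WT control library through a median of 9980 to 15851 in the highest. WT NMES libraries had 4859, 9095 and 11542 CPM (lowest, median, highest), KlHET control libraries 701, 10001 and 16020, and KlHET NMES libraries 7752, 12574 and 21069. The lowest value of 701 CPM belonged to KlHET control library 2 and was 14.9 times below the median of the other 27 libraries.

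Levels of Lys-CTT had 1 very high and 1 very low library. They were 3568, 4833 and 11794 CPM in WT control (lowest, median, highest), WT NMES libraries 2607, 3981 and 5389, KlHET control libraries 484, 3940 and 5726, and KlHET NMES libraries 3752, 4841 and 7947. WT control library 5 was the highest with 39973 counts, and it was also the only library in which Lys-TTT was the minor Lys anticodon, with 25.8% of Lys counts against 54.6% to 78.2% in the others.

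The Lys-CTT excess of WT control library 5 lay in 1 isodecoder, Lys-CTT-3. Each copy of Lys-CTT-3 had 5174 or 5213 counts there. In CPM this was 1527 or 1538, against at most 801 or 857 in any other library. The other 18 Lys-CTT isodecoders were inside the CPM range of the other libraries. Lys-CTT-2 had 389 CPM per copy there, against 40.6 to 700.2 with a median of 353 elsewhere, and tRNA-Lys-CTT-10-1 had 79.4 CPM against 27.9 to 599. The ratio of Lys-CTT-3 (copy 3-1) to Lys-CTT-2 (copy 2-1) was 3.92 in this library and had a median of 1.04.

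Levels of Gln-CTG were spread over the widest range together with Gln-TTG. WT control libraries had 200, 280 and 1251 CPM (lowest, median, highest), WT NMES libraries 175, 312 and 547, KlHET control libraries 181, 381 and 12369, and KlHET NMES libraries 33.0, 576 and 1810. The highest value was KlHET control library 2, and the next library of its group had 643 CPM. The lowest was KlHET NMES library 1, which had 25 counts. The group medians differed by far less than these extremes.

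The extremes of Gln-TTG were those of Gln-CTG. Its levels in WT control were 50.1, 141 and 606 CPM, WT NMES libraries 70.8, 162 and 282, KlHET control libraries 125, 182 and 11851, and KlHET NMES libraries 10.6, 298 and 923. KlHET control library 2 was again highest, 64.6 times above the median of the other libraries, and KlHET NMES library 1 lowest with 8 counts. KlHET control library 2 held 67.6% of all Gln counts of the 28 libraries, and Gln made up 19.9% of its tRNA counts against a median of 0.302% over all libraries.

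The Gln excess of KlHET control library 2 reached nearly all Gln rows, but not equally. tRNA-Gln-CTG-2-1 had 2032 counts there and at most 179 elsewhere, tRNA-Gln-CTG-4-1 had 680 against at most 25, and tRNA-Gln-TTG-1-1 had 3743 against at most 165. tRNA-Gln-CTG-7-1 had 49 counts, inside the range of 0 to 72 of the other libraries, and tRNA-Gln-TTG-4-1 had 2, inside 0 to 9. The share of Gln-CTG in Gln counts was 51.1% in this library, the lowest of the 28 (median 66.2%, highest 80.7%). KlHET NMES library 1 had 1 or 2 counts in most Gln rows in which every other library had 9 or more.

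Gln-CTG and Gln-TTG levels moved together across libraries. On log2 CPM Pearson's r was 0.967 and Spearman's rho 0.933 over 28 libraries (permutation p = 1e-05, the smallest that the resamples can give, adjusted p = 0.00011 over 11 relations), and r was 0.900 without the 2 libraries farthest from the median, KlHET control library 2 and KlHET NMES library 1. Within genotypes r was 0.860 in 12 WT and 0.986 in 16 KlHET libraries. Both levels share the library total as denominator. Whether reads were counted in rows of both anticodons, which would also tie the levels, was not tested. The ratio of tRNA-Gln-TTG-1-1 to tRNA-Gln-CTG-2-1 counts ran from 0.5 to 1.84, with a median of 0.979. For Lys-CTT and Lys-TTT r was 0.719 (adjusted permutation p = 0.0228) and rho 0.598, and r stayed at 0.698 without the 2 farthest libraries. Within WT libraries r was -0.20 and within KlHET libraries 0.954, so the relation did not hold in WT with all libraries included. Without WT control library 5 r was 0.539 in the other 11 WT libraries, and without KlHET control library 2 it was 0.763 in the other 15 KlHET libraries. The difference between genotypes was not tested.

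**Figure D2:**
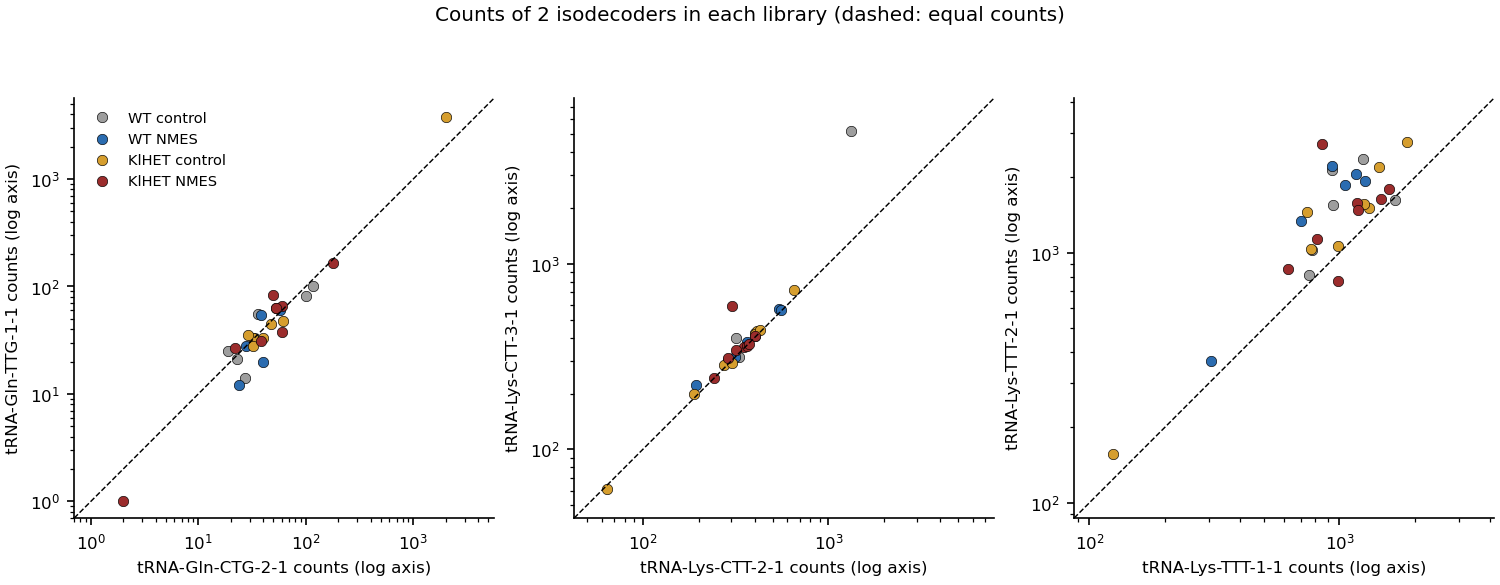
Counts of 2 tRNA rows in each of the 28 libraries (both axes log), coloured by group, with a dashed line at equal counts. KlHET control library 2 lies far out on the Gln panel (2032 and 3743 counts) beside KlHET NMES library 1 at its lower end (2 and 1), WT control library 5 leaves the line on the Lys-CTT panel (1320 and 5174), and on the Lys-TTT panel 26 of 28 libraries lie above the line.

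Arg-TCG was the most abundant Arg anticodon, with a median share of 44.9% of Arg counts. WT control libraries had 171, 248 and 328 CPM, WT NMES libraries 152, 216 and 307, KlHET control libraries 81.9, 397 and 624, and KlHET NMES libraries 182, 317 and 707. Its highest row, tRNA-Arg-TCG-3-1, had 26 to 294 counts per library and could not be told from tRNA-Arg-TCG-4-1, which had the same count in 23 of 28 libraries.

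Arg-TCT made up a median of 29.5% of Arg counts. WT control libraries had 43.4, 145 and 233 CPM, WT NMES libraries 51.7, 144 and 167, KlHET control libraries 17.1, 196 and 304, and KlHET NMES libraries 117, 208 and 367. tRNA-Arg-TCT-4-1, which in mice is expressed mainly in the central nervous system, had 3 to 51 counts in each of the 28 libraries. Whether its reads were also counted in other Arg-TCT rows was not tested, so these counts do not show its presence by themselves. Its median count was 15.5 in WT control, 21.5 in WT NMES, 25.5 in KlHET control and 19.5 in KlHET NMES libraries, and the groups overlapped. tRNA-Arg-TCT-3-1 exceeded it in all 28 libraries, by a median ratio of 4.75.

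Arg-CCG showed a narrow gap between the NMES groups of the genotypes, from 56.0 CPM in WT to 57.9 in KlHET. In WT control it had 15.0, 45.3 and 80.9 CPM, WT NMES libraries 27.6, 41.9 and 56.0, KlHET control libraries 22.9, 61.4 and 108, and KlHET NMES libraries 57.9, 75.4 and 122. Every KlHET NMES library was above every WT NMES library, while the control groups overlapped. The difference between the NMES groups was not called (log2 difference 0.62, edgeR adjusted p = 0.237). How many of the 47 anticodons separated these groups in the same way was not counted.

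Arg-CCT had 8.56, 28.8 and 62.1 CPM in WT control, 11.2, 36.0 and 49.9 in WT NMES, 21.4, 56.1 and 209 in KlHET control, and 35.9, 42.2 and 97.9 in KlHET NMES libraries. The highest value was again KlHET control library 2. Its 329 counts were 23.1% of all Arg-CCT counts, most of them in the 4 rows other than tRNA-Arg-CCT-4-1, each with 52 or 70 counts there against at most 12 elsewhere. tRNA-Arg-CCT-4-1 itself had 42.6 CPM in that library, inside the range of 5.31 to 76.2 CPM of the others.

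Arg-ACG was near the limit of these libraries. Its levels in WT control were 7.08, 36.7 and 87.9 CPM, WT NMES libraries 15.1, 26.3 and 119, KlHET control libraries 1.27, 59.1 and 105, and KlHET NMES libraries 17.9, 42.1 and 67.3. The lowest value stands for 2 counts in KlHET control library 2, so that Arg-CCT was at its highest and Arg-ACG, Arg-TCG and Arg-TCT at their lowest level in the same library.

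**Figure D3:**
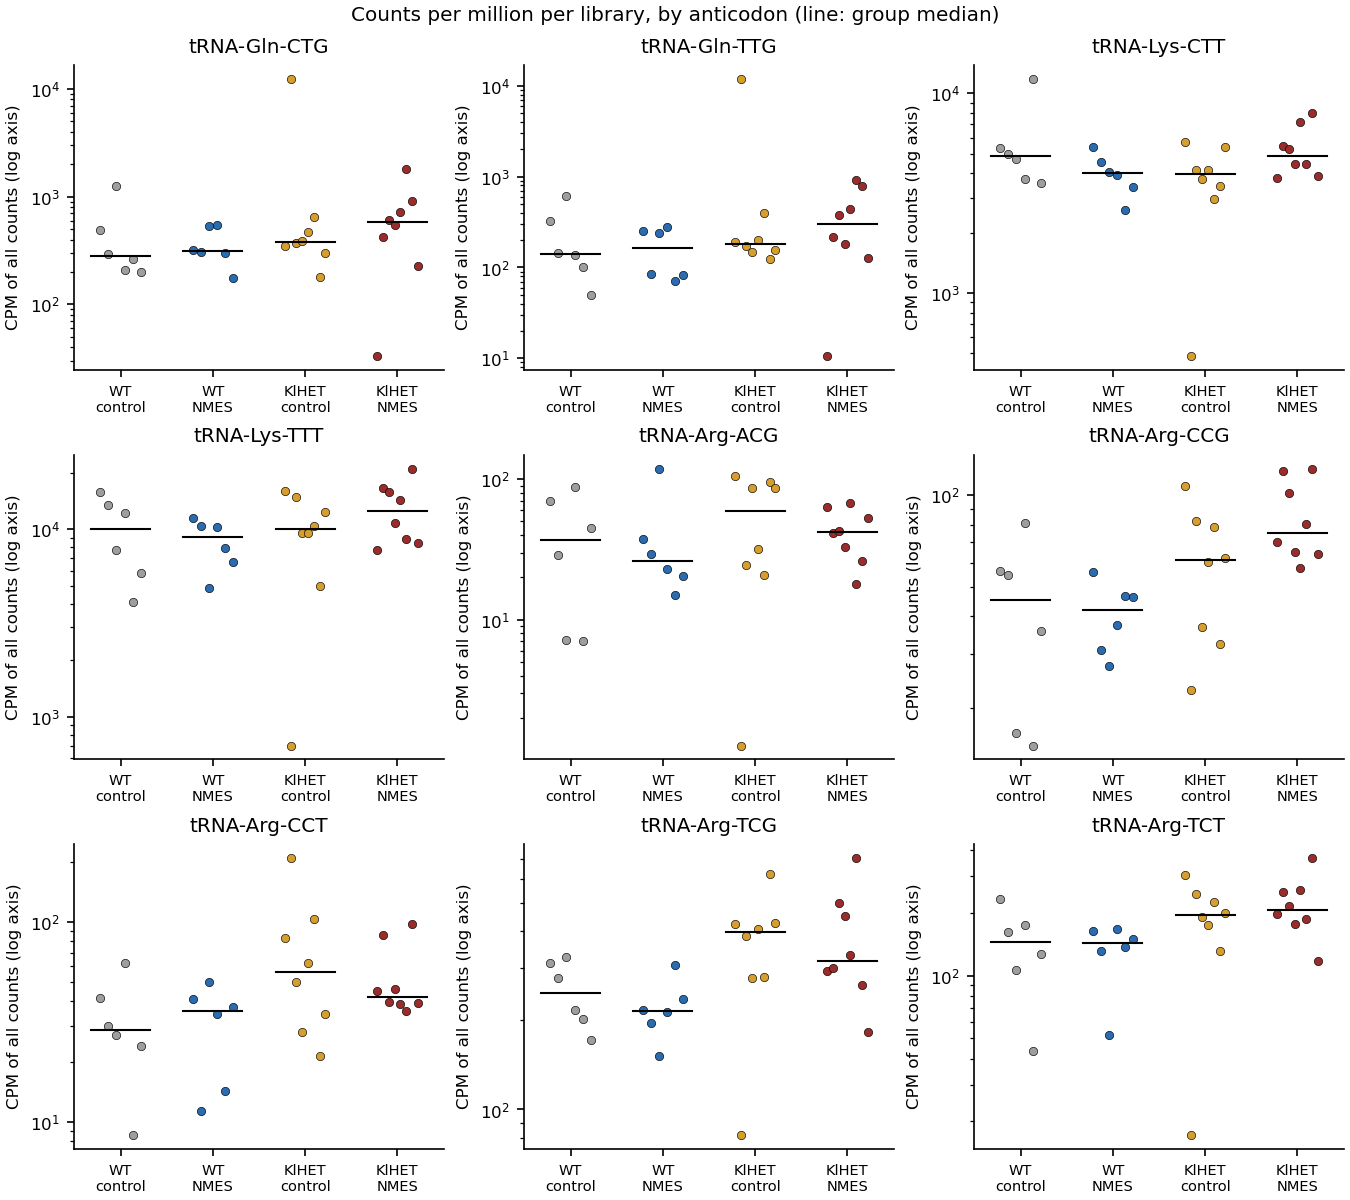
CPM of all counts (log axis) in each library for the 9 anticodons, with points by group and a line at the group median. The highest Gln-CTG (12369 CPM) and Gln-TTG (11851) points and the lowest Lys-TTT (701) and Lys-CTT (484) points are all KlHET control library 2, and the highest Lys-CTT point (11794) is WT control library 5.

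Relative to all tRNA counts, Lys was higher in KlHET NMES than in the other groups at the median. Lys took 14.5% of tRNA counts at the median of KlHET NMES libraries (5.88% to 21.6%), 5.64% in KlHET control (0.975% to 13.7%), 6.48% in WT control and 6.63% in WT NMES libraries. Arg took 0.583%, 0.310%, 0.254% and 0.227% and Gln 0.556%, 0.302%, 0.221% and 0.237% in the same order of groups. All ranges overlapped. These shares depend on the other tRNAs too, whose part of the library was smallest at the median in KlHET NMES, and no test was made on them.

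NMES and control were compared first in WT mice, the question being which tRNAs of plasma EVs change after stimulation. No row was called at an adjusted p under 0.05 by edgeR's quasi-likelihood test among 341 tRNA rows tested (0%), so that none of the 57 Gln, Lys and Arg rows was called either. At an unadjusted p under 0.05 edgeR gave 44 rows (12.9%), 7 of them members of the set, all Lys, and DESeq2 called 7 rows after adjustment with none of the set. The median log2 difference was -0.28 for Gln, -0.11 for Lys and 0.04 for Arg rows, against -0.13 for all rows. tRNA-Lys-CTT-3-5 had the smallest p of the set, with 302, 404.5 and 5174 counts in WT control (lowest, median, highest) and 223, 347.5 and 571 in WT NMES, a log2 difference of -0.86 ± 0.38 (SE; adjusted p = 0.348).

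By anticodon the WT comparison gave no call among 47 tested (0%), with 5 (10.6%) at an unadjusted p under 0.05 by edgeR and 2 called by DESeq2, none of which was among the 9 Gln, Lys and Arg anticodons. Lys-TTT differed by -0.01 (95% interval -0.56 to 0.53) and Lys-CTT by -0.64 (-1.32 to 0.05). Without WT control library 5 the Lys-CTT value was 0.07. For Gln-CTG the interval ran from -2.38 to 2.16 and for Gln-TTG from -2.71 to 2.30, bounds that widen with a library outside this comparison, since all 28 libraries share the estimate of spread. They were -1.21 to 0.98 and -1.41 to 1.00 without KlHET control library 2.

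In KlHET mice nearly all Gln rows fell with NMES in edgeR's test, and without KlHET control library 2 the direction of all of these turned. edgeR called 54 of 341 tRNA rows, all lower in NMES (15.8%), and 16 of the 57 rows of the set were among them. All 16 were Gln rows, out of 17 tested, and no Lys or Arg row was called. The share among the remaining tRNAs was 38 of 284 rows (13.4%). The median log2 difference was -3.79 for Gln, 0.24 for Lys and -0.10 for Arg rows, against -0.48 for all rows. No tRNA row was called without KlHET control library 2, and none without KlHET NMES library 1. The called rows of the set fell from 16 to 2 without WT control library 4, to 5 without KlHET NMES library 2, to 6 without KlHET NMES library 8 and to 7 without WT control library 5. DESeq2, which replaces outlying counts in groups of this size, called no row in this comparison, with 1 row of the set at an unadjusted p under 0.05. With library sizes in place of TMM no row was called either.

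Single rows show what the call rests on. tRNA-Gln-CTG-5-1 had 3, 12.5 and 680 counts in KlHET control (lowest, median, highest) and 1, 9.5 and 25 in KlHET NMES libraries, and its log2 difference was -4.61 ± 1.16 (SE; edgeR adjusted p = 0.0148). tRNA-Gln-TTG-1-1 had 28, 40 and 3743 counts against 1, 50.5 and 165, with a log2 difference of -4.52 ± 1.26 (adjusted p = 0.0206). In both the medians were close or in the other order, and the highest KlHET control library was far above all KlHET NMES libraries. tRNA-Gln-CTG-4-1 (-4.48 ± 1.12, adjusted p = 0.0148) and tRNA-Gln-CTG-2-1 (-3.70 ± 1.10, adjusted p = 0.0247) had the same pattern, with highest KlHET control counts of 680 and 2032. Without KlHET control library 2 these differences were 0.21 for Gln-CTG-5-1, 0.76 for Gln-TTG-1-1, 0.24 for Gln-CTG-4-1 and 0.70 for Gln-CTG-2-1.

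By anticodon 9 of 47 were called in KlHET, all lower in NMES (19.1%), among them Gln-CTG, Gln-TTG and Arg-CCT. The log2 differences were -3.79 ± 1.12 for Gln-CTG (SE; edgeR adjusted p = 0.0228), -4.53 ± 1.27 for Gln-TTG (adjusted p = 0.0228) and -1.89 ± 0.63 for Arg-CCT (adjusted p = 0.0323), against a median of -0.46 over all anticodons. Without KlHET control library 2 they were 0.66, 0.80 and -0.12, with adjusted p of 0.598, 0.598 and 0.884, and no anticodon was called. In DESeq2 the values of Gln-CTG and Gln-TTG were 0.11 and 0.82, and that of Arg-CCT was -1.23 (adjusted p = 0.832, 0.273 and 0.115). Counting the fit without KlHET control library 2, the call was lost in 15 of 28 fits with 1 library left out for Gln-CTG, in 9 for Gln-TTG and in 19 for Arg-CCT. In the other 27 fits the adjusted p in edgeR was at most 0.118, 0.108 and 0.136 for the 3 anticodons. Calls were lost without any 1 of the 12 WT libraries for Gln-CTG and Arg-CCT, without WT control libraries 1, 2 or 3 or WT NMES libraries 1, 2 or 4 for Gln-TTG, and without KlHET NMES libraries 3 or 4 for all 3, and also without KlHET control library 5 or KlHET NMES libraries 1, 5 or 6 for Arg-CCT. The Gln differences were -4.72 to -3.12 in these 27 fits, all scaled by TMM within tRNAs. Scaled to all counts of the library they were -1.52 for Gln-CTG and -2.11 for Gln-TTG (adjusted p = 0.376 and 0.315), with no call.

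Lys and the other Arg anticodons did not pass the test in KlHET. Lys-TTT differed by 0.19 (95% interval -0.28 to 0.66), Lys-CTT by 0.19 (-0.40 to 0.79), Arg-CCG by 0.14 (-0.37 to 0.66), Arg-TCG by -0.29 (-0.85 to 0.28), Arg-TCT by 0.00 (-0.42 to 0.43) and Arg-ACG by -0.70 (-1.82 to 0.42). tRNA-Arg-TCT-4-1 had a log2 difference of -0.31 ± 0.33 in KlHET (adjusted p = 0.578) and 0.41 ± 0.38 in WT mice (adjusted p = 0.737).

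Averaged over genotypes, NMES gave no called row among 341 (0%) in edgeR's test. There were 82 at an unadjusted p under 0.05 (24%), 16 of them of the set, and DESeq2 called 34 rows, none of the set. By anticodon 8 of 47 were called, all lower (17%), and none was Gln, Lys or Arg. Gln-TTG came closest with -2.36 ± 0.89 (adjusted p = 0.0686), followed by Gln-CTG with -1.95 ± 0.79 (adjusted p = 0.0984). Both were positive without KlHET control library 2, 0.30 for Gln-TTG and 0.28 for Gln-CTG (adjusted p = 0.660).

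The difference of the NMES effects between genotypes was called for 9 of 341 rows (2.64%), all lower, with no Gln, Lys or Arg row among them, although 24 rows of the set, among 67 in all (19.6%), were at an unadjusted p under 0.05. tRNA-Gln-CTG-5-1 had the smallest p of the set, with -4.96 ± 1.74 on the log2 scale (edgeR adjusted p = 0.22). No anticodon was called (0%), with 10 (21.3%) at an unadjusted p under 0.05 by edgeR and 0 called by DESeq2. Gln-CTG (-3.67), Gln-TTG (-4.32) and Arg-CCT (-2.11) each had an adjusted p of 0.210. These differences were 0.78, 1.00 and -0.33 without KlHET control library 2, and 7 rows of the set were at an unadjusted p under 0.05. The NMES effects on the Gln tRNAs were therefore not shown to differ between KlHET and WT mice.

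KlHET and WT were then compared in control mice. This comparison shares the KlHET control libraries with the previous ones. Library labels begin with A in all WT and with J in all KlHET mice. Label series and genotype therefore cannot be told apart, here or in NMES mice. edgeR called 69 of 341 tRNA rows (20.2%), with 44 higher (12.9%) and 25 lower (7.33%) in KlHET. Of the 57 rows of the set 24 were called: 16 Gln rows and tRNA-Lys-CTT-6-1 were higher, and the 7 copies of Lys-CTT-3 were lower. The median log2 difference was 4.11 for Gln, -0.23 for Lys and 0.55 for Arg rows, against 0.34 for all rows. DESeq2 called 27 rows, all lower, of which 2 belonged to the set. Without KlHET control library 2 edgeR called 20 rows and none of the set.

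The Gln rows were higher in KlHET control with KlHET control library 2 included, and without it the differences of the called rows turned negative except for tRNA-Gln-CTG-5-1 (0.67) and tRNA-Gln-CTG-4-1 (0.18). tRNA-Gln-CTG-5-1 had 1, 7.5 and 11 counts in WT control and 3, 12.5 and 680 in KlHET control libraries (log2 difference 5.49 ± 1.39, edgeR adjusted p = 0.0193). tRNA-Gln-TTG-1-1 had 14, 40 and 102 against 28, 40 and 3743 counts (5.03 ± 1.46, adjusted p = 0.0219), with equal medians. By anticodon Gln-CTG differed by 4.03 ± 1.28 (adjusted p = 0.0230) and Gln-TTG by 4.99 ± 1.48 (adjusted p = 0.0215), and without KlHET control library 2 by -0.42 and -0.33 (adjusted p = 0.555 and 0.669). In DESeq2 the Gln values were -0.50 and -0.41. Arg-CCT differed by 2.37 ± 0.72 (adjusted p = 0.0216), and by 0.60 (adjusted p = 0.249) without KlHET control library 2. DESeq2 called Arg-CCT as well, with 1.63 (adjusted p = 0.0263). The call was lost in 15 of 28 fits with 1 library left out for Gln-CTG, in 12 for Gln-TTG and in 10 for Arg-CCT. KlHET control library 2, WT control libraries 1, 2, 3 and 5, WT NMES libraries 1 and 3 and KlHET NMES libraries 3, 4 and 6 were among these for all 3 anticodons, WT control library 4 and WT NMES library 2 for both Gln anticodons, and WT control library 6, WT NMES library 4 and KlHET control library 5 for Gln-CTG. In the 27 fits that left out another library the value was at least 3.09 for Gln-CTG, 4.13 for Gln-TTG and 1.77 for Arg-CCT. Scaled to all counts of the library, it was 2.06, 2.86 and 1.21 (adjusted p = 0.140, 0.102 and 0.140), with no call. tRNA-Arg-CCT-4-1, the only Arg-CCT row tested, differed by 1.13 (adjusted p = 0.103).

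The lower Lys-CTT level in KlHET control mice was weakest in the fit without WT control library 5. tRNA-Lys-CTT-3-6 had 323, 428 and 5213 counts in WT control and 86, 406 and 825 in KlHET control libraries, with a log2 difference of -0.97 ± 0.34 (edgeR adjusted p = 0.0419), and tRNA-Lys-CTT-3-5 differed by -1.14 ± 0.35 (adjusted p = 0.0219). In DESeq2 Lys-CTT as a whole differed by -1.12, without a p-value. In edgeR it differed by -0.88 ± 0.32 (adjusted p = 0.0487), and by -0.23 (adjusted p = 0.539) without WT control library 5. This call was lost in 19 of the 28 fits with 1 library left out, and was kept without WT control libraries 1, 4 or 6, WT NMES library 4, KlHET control libraries 1, 7 or 8, or KlHET NMES libraries 5 or 7, while the value ran from -1.52 to -0.23. tRNA-Lys-CTT-2-1 differed in the same direction as Lys-CTT-3, by -0.39, and was not called (edgeR adjusted p = 0.2). Whether Lys-CTT-2 and Lys-CTT-3 differed from each other was not tested. The ratio of tRNA-Lys-CTT-3-1 to tRNA-Lys-CTT-2-1 was 3.92 in WT control library 5, against a median of 1.04. tRNA-Lys-CTT-6-1 was called higher by 0.74 ± 0.23 (adjusted p = 0.022). tRNA-Lys-CTT-2-1 and tRNA-Lys-CTT-6-1 were chosen after their values were seen.

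By anticodon 11 of 47 were called between the genotypes in control mice (23.4%), 7 higher (14.9%) and 4 lower (8.51%), and 4 of the 9 Gln, Lys and Arg anticodons were among them as given above. The other Arg anticodons did not pass: Arg-CCG differed by 0.59 (95% interval 0.03 to 1.16, adjusted p = 0.109), Arg-TCG by 0.59 (-0.03 to 1.20), Arg-TCT by 0.37 (-0.10 to 0.83) and Arg-ACG by 0.59 (-0.63 to 1.81), against a median of 0.49 over all anticodons. Lys-TTT differed by -0.07 (-0.58 to 0.44).

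**Figure D4:**
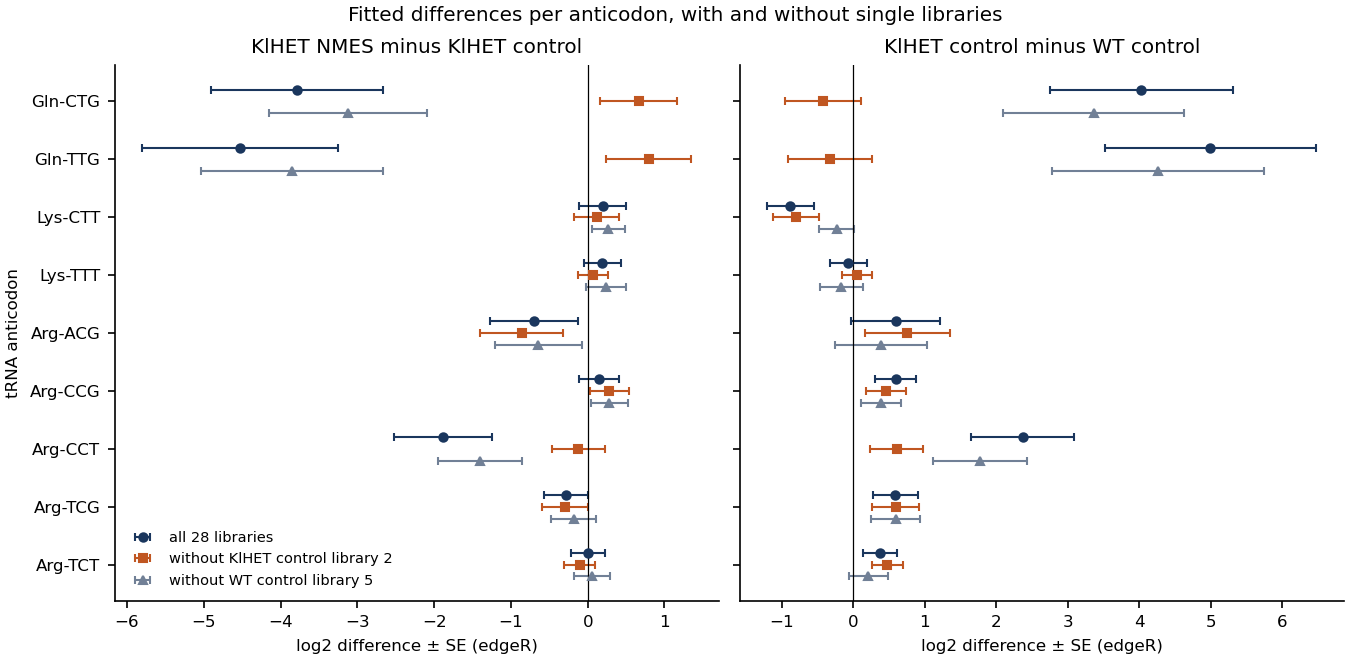
Log2 differences (edgeR, ± SE) of the 9 anticodons between KlHET NMES and KlHET control (left) and between KlHET control and WT control (right), with all 28 libraries and with 1 library left out. Without KlHET control library 2, Gln-CTG and Gln-TTG change sign and Arg-CCT shrinks (left panel 0.66, 0.80 and -0.12). Lys-CTT moves from -0.88 to -0.23 on the right without WT control library 5.

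In NMES mice no tRNA row was called between KlHET and WT in edgeR's test (0 of 341 rows, 0%). There were 29 rows at an unadjusted p under 0.05 (8.5%), 5 of them of the set, and DESeq2 called 2 rows, none of the set. tRNA-Lys-CTT-10-1 had 79.4, 143 and 192 CPM in WT control, 122, 140 and 177 in WT NMES, 27.9, 203 and 268 in KlHET control and 207, 271 and 599 in KlHET NMES libraries. All KlHET NMES libraries were above all WT NMES libraries in CPM, with a log2 difference of 0.71 ± 0.25 (edgeR adjusted p = 0.308). It was named for the smallest p of the set here, and how many other rows separated the groups was not counted. By anticodon 1 of 47 was called, lower in KlHET (2.13%), and it was none of the set. Arg-CCG, whose NMES groups did not overlap in CPM, differed by 0.62 (95% interval 0.06 to 1.18, adjusted p = 0.237). Gln-CTG differed by 0.35 (-1.78 to 2.49) and Gln-TTG by 0.67 (-1.71 to 3.05). Without KlHET control library 2, which is in neither group, the intervals were -0.68 to 1.38 and -0.47 to 1.82.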

How the data were processed

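Small RNA of plasma EVs was sequenced as single-end reads in 28 libraries, 1 per mouse, and grouped by the genotype and treatment in the labels. Alignment to mm10 had been done by the authors in STAR 2.5.3a, and COMPSRA gave the deposited raw counts for each small RNA. The handling of reads that fit several rows is not given in the sources used here. Copies of 1 gene often had identical counts, so reads were counted in several rows, which the planned sum per anticodon had not assumed. No column was left out (0 not mapped).

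The 464 tRNA rows were fitted together with edgeR 4.0.16 (limma 3.58.1, R 4.3.3), after filterByExpr by group (341 rows, 47 anticodon sums) and TMM within tRNAs, with 1 mean per group and 6 comparisons in 1 fit. P-values were adjusted by Benjamini-Hochberg over all rows or all anticodons, and a call means an adjusted p under 0.05. SE is the log2 difference divided by the root of the F statistic, and 95% intervals are normal. DESeq2 1.42.0 was the alternative tool (the authors used 1.42.1). Other alternatives were scalings, filters, only the groups compared and each library left out. Counting each isodecoder once, the highest row per anticodon, and values of every comparison and correlation without the outlying libraries were added after seeing the data. Correlations used permutation tests. Levels and correlations were computed in pandas 2.3.3, scipy 1.17.1 and numpy 2.4.6 under Python 3.11.15. The code was checked on simulated data.

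Named rows are the highest of each anticodon, the rows called (the 10 with the smallest p where more were called), the row with the smallest p per comparison, and tRNA-Arg-TCT-4-1. Members and lists were chosen with earlier results of these data known. Marker miRNAs were described, not tested. Library totals were 531261 to 3389206 counts. Reads are not independent molecules, since no molecular identifiers were used.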

Additional observations from a re-analysis of the deposited data

Results flagged for a closer look

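Among 36 combinations of 9 anticodons and 4 groups, 10 had a library whose gap to its neighbour on the log2 CPM scale exceeded Dixon's 95% critical value. Chance gives this in about 1 in 20 groups of normally distributed values. The 36 combinations share libraries and are not independent, so their number of flags cannot be set against that rate. KlHET control library 2 accounted for 7 of them. It was highest in its group for Gln-CTG with 12369 CPM (19475 counts, next library 643 CPM) and Gln-TTG with 11851 CPM (18659 counts, next 396 CPM). It was lowest for Lys-CTT with 484 CPM (762 counts, next 2959 CPM), Lys-TTT with 701 CPM (1103 counts, next 5008 CPM), Arg-TCG with 81.9 CPM (129 counts, next 278 CPM), Arg-TCT with 17.1 CPM (27 counts, next 131 CPM) and Arg-ACG with 1.27 CPM (2 counts, next 20.9 CPM).

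WT control library 5 was highest for Lys-CTT with 11794 CPM (39973 counts, next 5350 CPM). KlHET NMES library 1 was lowest for Gln-TTG with 10.6 CPM (8 counts, next 128 CPM). WT NMES library 3 was lowest for Arg-TCT with 51.7 CPM (30 counts, next 132 CPM).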

How the results depend on the processing

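No paired analysis was made because the labels do not state a pairing of mice across groups. The WT label numbers alternate between control and NMES mice, but whether these are pairs is not given. Low counts limit Arg-ACG, Arg-CCG and Arg-CCT, and the copies of 1 isodecoder are not independent rows. The causes of the changes below were not tested, beyond fewer samples or rows where a setting leaves them out. The settings with 1 row per isodecoder and with the highest row of each anticodon were chosen after seeing the data, as were the correlations without outlying libraries.

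Counts are given in the order NMES in WT, NMES in KlHET, NMES averaged, difference of the NMES effects, KlHET against WT in control and in NMES mice. edgeR called 0, 54, 0, 9, 69 and 0 rows, and 0, 9, 8, 0, 11 and 1 anticodons. DESeq2 called 7, 0, 34, 0, 27 and 2 rows and 2, 0, 7, 0, 6 and 3 anticodons. TMMwsp gave 0, 33, 0, 0, 64 and 0 rows and 2, 4, 8, 0, 4 and 0 anticodons. Scaling to the tRNA total without TMM gave 0, 0, 0, 0, 30 and 0 rows and no anticodon (0 in each), scaling to all counts 0, 0, 0, 0, 13 and 0 rows and again 0 anticodons. TMM over all RNA classes gave 0, 36, 40, 9, 72 and 0 rows and 3, 10, 8, 0, 16 and 0 anticodons. Without a filter there were 5 anticodons for NMES in KlHET and 0 between genotypes in NMES mice, and with at least 10 counts in 6 libraries 0 rows for the difference of the NMES effects. In fits of only the 2 groups compared there were 0 rows and 0 anticodons for NMES in KlHET and for KlHET against WT in control mice. With 1 row per isodecoder there were 0, 22, 0, 6, 42 and 0 rows and 3, 0, 0, 0, 9 and 0 anticodons, and with the highest row of each anticodon 0, 4, 0, 0, 10 and 2. The robust fit moved no count by over 1.5 times.

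Of the rows called between genotypes in control mice, 44 were higher and 25 lower in edgeR, 33 and 31 with TMMwsp, 2 and 11 scaled to all counts and 0 and 27 in DESeq2. Of the anticodons, 7 were higher and 4 lower, 12 and 4 with TMM over all classes, 1 and 3 with TMMwsp and 2 and 4 in DESeq2. The median log2 difference of all rows for NMES in KlHET was -0.48, and it was 0.57 scaled to the tRNA total, 0.03 scaled to all counts and -0.06 with TMMwsp. Between genotypes in control mice it was 0.34, and -0.03 with TMMwsp and -0.13 in DESeq2.

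With 1 library left out, or both WT control library 5 and KlHET control library 2, the calls ranged from 0 to 7, 0 to 61, 0 to 41, 0 to 9 and 17 to 82 rows in the first 5 comparisons, and from 0 to 5, 0 to 15, 0 to 10, 0 to 0, 1 to 16 and 0 to 5 anticodons. For NMES in KlHET the rows called were 0 without KlHET control library 2 or KlHET NMES library 1 and 12 without WT control library 4.

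The log2 differences that turned did so without KlHET control library 2 (tRNA-Gln-CTG-4-1 between genotypes when WT control library 5 was left out too) or in DESeq2. For NMES in KlHET these fits ranged from -4.78 to 0.98 for tRNA-Gln-TTG-5-1 (DESeq2 0.91), -4.09 to 0.76 for CTG-2-1 (0.71), -4.83 to 0.91 for TTG-3-2 (0.85), -4.71 to 0.90 for TTG-2-1 (0.83), -4.83 to 0.30 for CTG-4-1 (0.27), -4.78 to 0.84 for TTG-1-1 (0.78) and -5.03 to 0.25 for CTG-5-1 (0.26), -4.03 to 0.66 for Gln-CTG (0.11) and -4.72 to 0.80 for Gln-TTG (0.82). Between genotypes in control mice they ranged from -0.54 to 5.62 for TTG-5-1 (DESeq2 -0.49), -0.44 to 4.59 for CTG-2-1 (-0.51), -0.50 to 5.61 for TTG-3-2 (-0.45), -0.46 to 5.44 for TTG-2-1 (-0.47), -0.42 to 5.46 for TTG-1-1 (-0.44), -0.043 to 5.11 for CTG-4-1, -0.43 to 4.21 for Gln-CTG (-0.50) and -0.39 to 5.18 for Gln-TTG (-0.41). Without KlHET control library 2 the averaged NMES values and the differences of the NMES effects of both Gln anticodons, which were not called, turned positive too.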
